A study of Mus musculus with 6 samples.

Results

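Cytokine genes of the interleukin families of Il6, Il10 and Il12 were followed through CUT&RUN peak lists of bone marrow-derived macrophages (BMDMs). The 6 genes were Il6, Il10, Il12a, Il12b, Il23a and Il27, out of 21938 protein-coding genes on the chromosomes of the reference annotation. They were chosen by name, and every peak of 4 lists that touched a gene body extended by 100 kb on each side was taken as belonging to its window. This gave 109 of 73049 peaks of the LPS H3K4me1 list, 103 of 64758 of the PBS H3K4me1 list, 5 of 4200 of the LPS H3K27ac list and 0 of 52 of the PBS H3K27ac list. No window shared a peak with another.

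The BMDMs came from the bone marrow of C57BL/6 mice, which per the study's methods were young adult males, and were grown in medium conditioned by L929 cells, which supplies macrophage colony-stimulating factor. All groups shared this strain and culture, and the labels give no dose. Treatment lasted 1 h, with lipopolysaccharide (LPS), a component of the outer membrane of Gram-negative bacteria, or with PBS as the control. The 6 libraries were 1 each for H3K4me1, H3K27ac and IgG under either treatment, and the 4 with a peak list are described. In CUT&RUN an antibody bound to chromatin directs a nuclease, and the released DNA fragments are sequenced. H3K4me1 is a histone mark of enhancers that is often present before an enhancer acts, and H3K27ac marks active enhancers and promoters.

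With 1 library per treatment and antibody there is no replicate error and no test between treatments, and a count below describes these libraries. Depth, recovered from the values of the peaks, was 7010000 fragments for LPS H3K4me1, 6860000 for PBS H3K4me1, 5660000 for LPS H3K27ac and 7210000 for PBS H3K27ac. For H3K27ac the true depth, and the fragments per peak below, may be higher, as described under the processing. The strength of a peak is given as the number of fragments at its summit, the position of highest coverage, with a 95% exact Poisson interval that covers counting error only, since fragments copied by PCR are not independent. The fewest fragments at any summit were 8 in each H3K4me1 list, 5 in the LPS H3K27ac list and 8 in the PBS H3K27ac list. A position without a peak may therefore still have held fragments that fell short of these limits. As a check of the label, a set of macrophage markers had an H3K4me1 peak within 10 kb of the transcription start site (TSS) for 10 of 10 genes under LPS and 8 of 10 under PBS. The counts under LPS and PBS were 4 and 2 of 6 T cell markers, 5 and 4 of 6 B cell markers, 1 and 2 of 6 neutrophil markers, 3 and 3 of 6 dendritic cell markers and 1 and 1 of 6 fibroblast markers. Among all protein-coding genes the shares were 47.6% under LPS and 41% under PBS. The part of other cell types in the peaks below was not tested.

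Interleukin-6 is secreted by activated macrophages and acts through Il6ra and the shared receptor chain Il6st. Interleukin-10 is the main cytokine by which macrophages restrain inflammation. The interleukin-12 family is built of pairs of subunits: Il12a and Il12b form interleukin-12, which drives type 1 helper T cells, Il23a and the same Il12b form interleukin-23, which sustains interleukin-17-producing T cells, and Il27 pairs with Ebi3 in interleukin-27. These genes are known to be induced in macrophages by Toll-like receptor signalling through NF-kB, AP-1 and C/EBP factors, and PU.1 is the factor that opens many macrophage enhancers.

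H3K4me1 was unevenly spread over the 6 genes. The Il10 window held 37 peaks under LPS and 44 under PBS, more than the windows of 95.6% and 98.4% of protein-coding genes. The Il27 window held 23 and 22 peaks, the Il12b window 22 and 17, and the Il23a window 19 and 12. The Il12a window held 6 and 5, and the Il6 window only 2 and 3. The median protein-coding gene had 9 peaks under LPS and 7 under PBS. Il6 and Il12a lay below it in both lists, and the other 4 genes lay above it in both. Among protein-coding genes of at most 15 kb, as all 6 are, the medians were 7 and 5, and Il12a then equalled the PBS median. The LPS list had more peaks than the PBS list in 4 of the 6 windows, those of Il12a, Il12b, Il23a and Il27. This was also so for 54.6% of all protein-coding genes, in lists that differed in total size. With the H3K4me1 lists held to equal size it was so in 2 of the 6 windows, those of Il12b (18 against 17) and Il23a (17 against 12), and for 40.2% of all protein-coding genes. Il27 then had 18 against 22, Il10 33 against 44, Il6 2 against 3, and Il12a 5 in each.

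**Figure D1:**
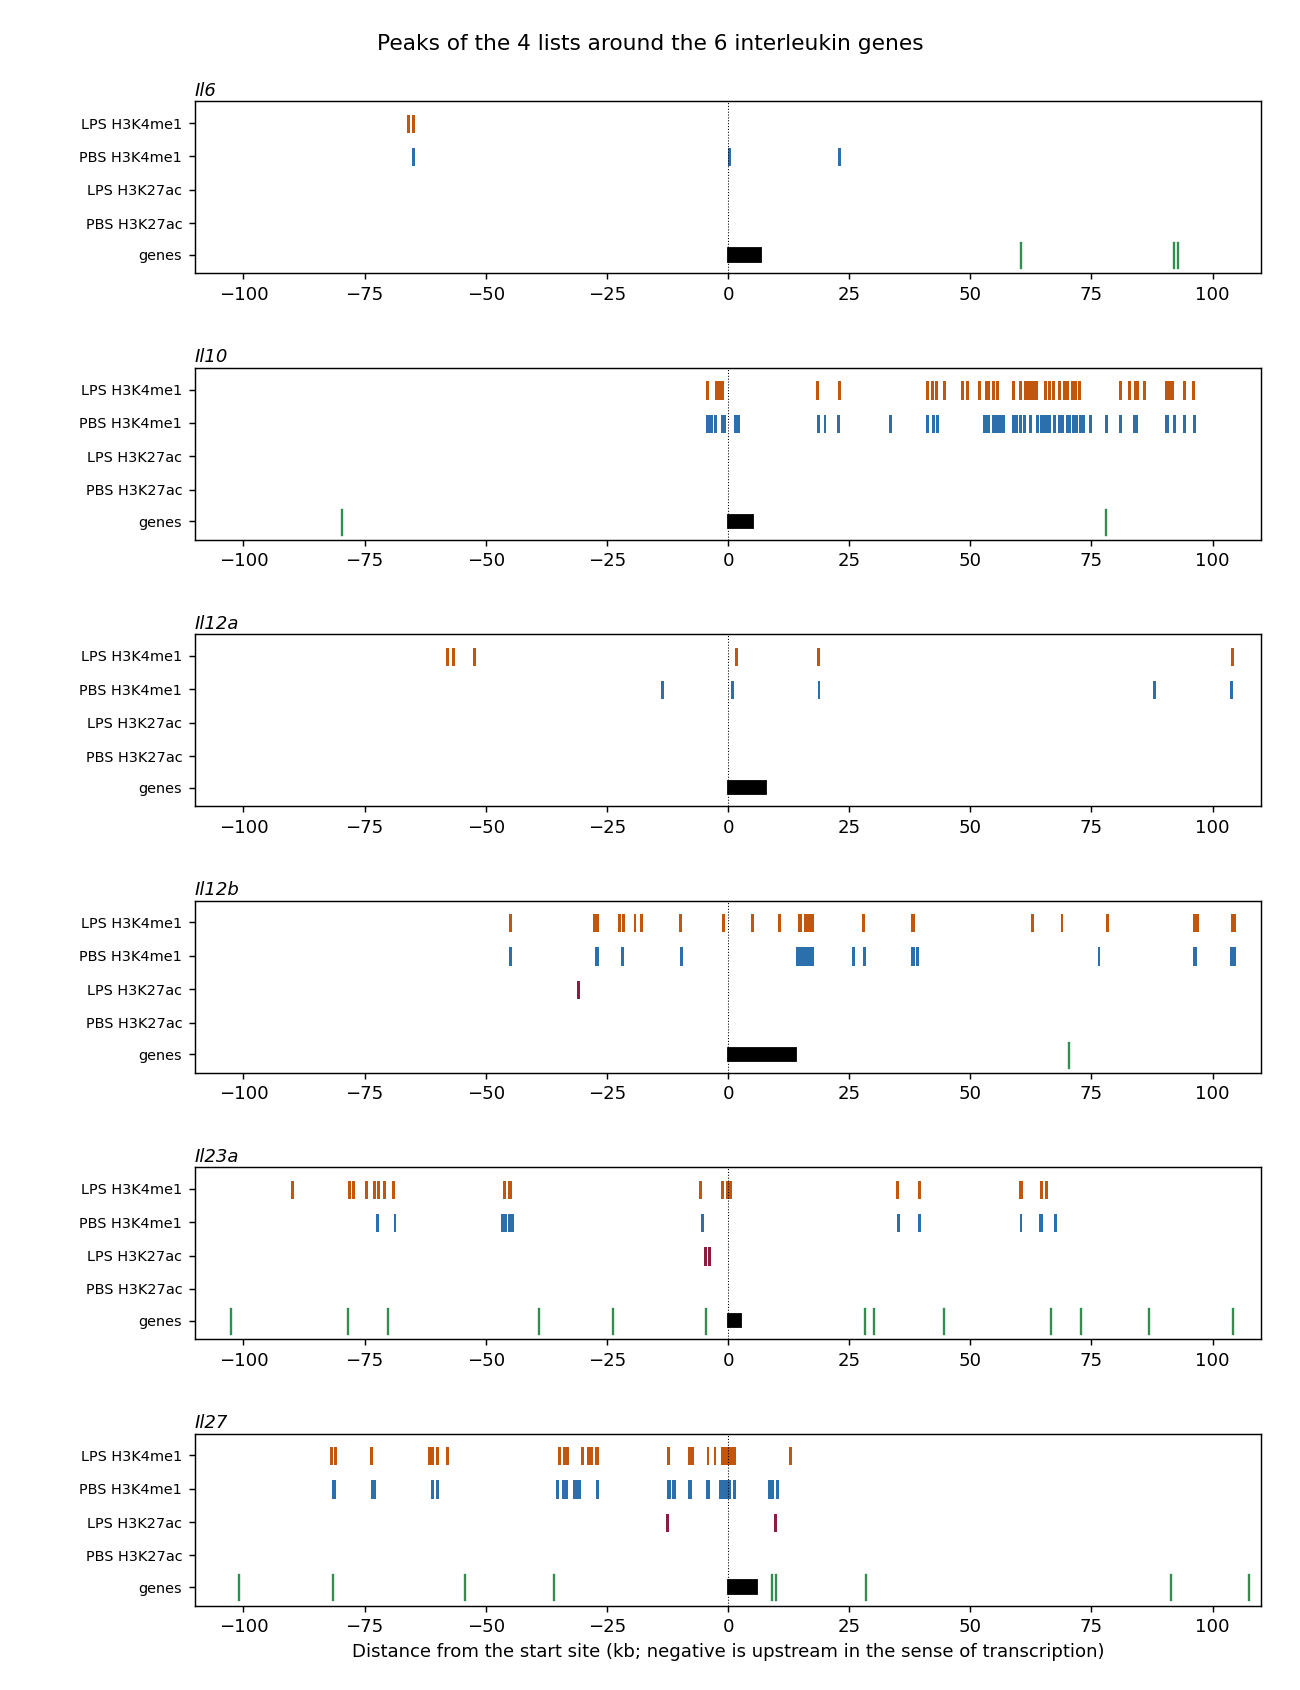
Positions of peaks (boxes, drawn at least 0.6 kb wide) in the LPS and PBS H3K4me1 and H3K27ac lists around each gene, against the distance in kb from its TSS, with the gene body in black and the TSSs of neighbouring protein-coding genes as green ticks. Il10 has 37 and 44 H3K4me1 peaks, mostly downstream of its TSS, Il6 has 2 and 3, and the 5 H3K27ac peaks lie near Il12b, Il23a and Il27 in the LPS list.

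**Figure D2:**
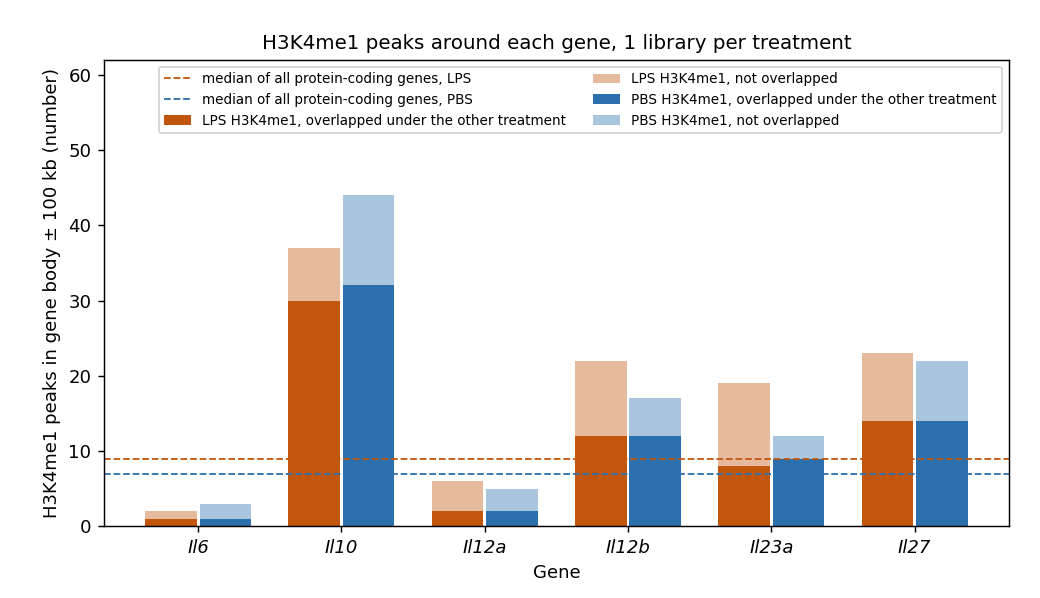
Number of H3K4me1 peaks in each gene body extended by 100 kb, for the 1 LPS and 1 PBS library, divided into peaks with a counterpart of at least 1 bp under the other treatment (dark) and peaks without (pale), with the medians of all protein-coding genes, 9 and 7, as dashed lines. Il6 and Il12a lie below the medians and the other 4 genes above them.

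Most of these peaks were listed under both treatments. Of the 109 LPS peaks, 67 (61.5%, 95% Wilson interval 52.1 to 70.1%) shared at least 1 bp with a PBS peak, against 61.2% of the whole LPS list. Of the 103 PBS peaks, 70 (68%, 58.4 to 76.2%) shared at least 1 bp with an LPS peak, against 73.1% of the whole PBS list. Both intervals hold the value of the whole list, but they treat neighbouring peaks as independent. The windows differed. Under LPS 30 of 37 peaks had a counterpart at Il10, 14 of 23 at Il27 and 12 of 22 at Il12b. At Il23a it was 8 of 19, at Il12a 2 of 6 and at Il6 1 of 2. Under PBS the counts were 32 of 44, 14 of 22 and 12 of 17, then 9 of 12, 2 of 5 and 1 of 3. When at least 50% of both peaks had to be shared, the shares over all windows were 26.6% and 28.2%. By length, 22501 bp were covered in both lists, which was 49.6% of the 45328 bp covered under LPS and 49.1% of the 45822 bp covered under PBS. Peaks with a counterpart were the stronger ones. Their median was 19 fragments under LPS and 18 under PBS, while peaks without a counterpart had medians of 13.5 and 13. The ranges overlapped, at 8 to 42 fragments with and 8 to 26 without a counterpart under LPS. The same order held in the whole lists, where the medians were 20 against 14 under LPS and 19 against 13 under PBS.

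**Figure D3:**
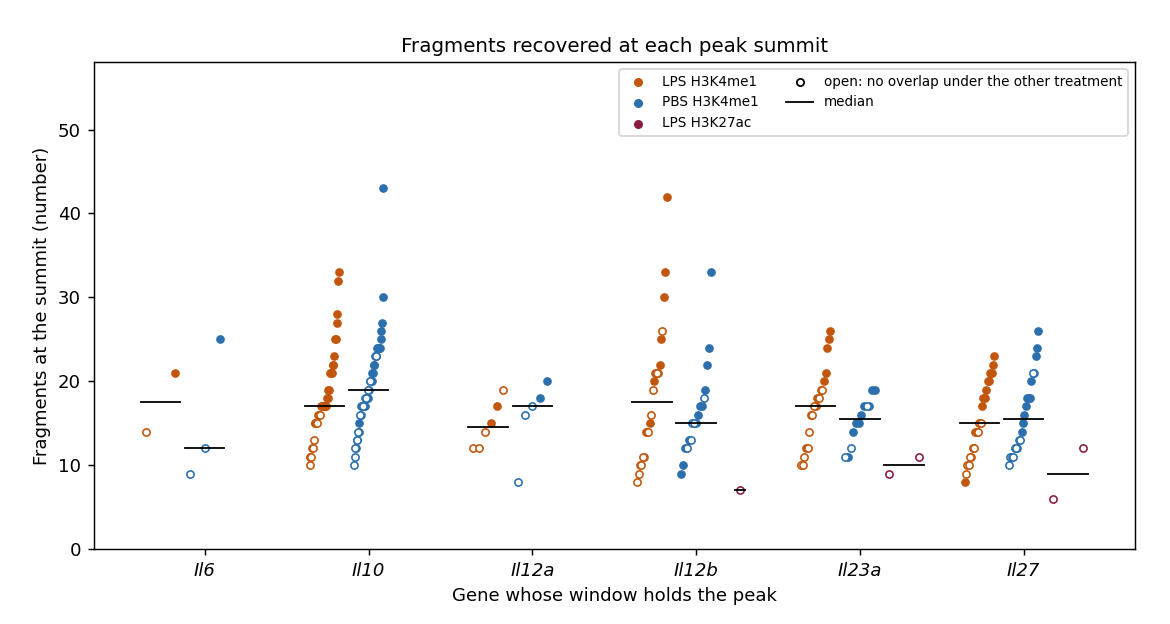
Fragments recovered at the summit of every peak in the 6 windows, by gene and list, with medians as black lines; filled points have a counterpart in the same mark under the other treatment and open points do not. The highest values are 43 fragments at a PBS peak of the Il10 window and 42 at an LPS peak of the Il12b window, and open points lie at 26 fragments or fewer.

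At the start sites the 6 genes fell into 3 patterns of H3K4me1. Il10 and Il27 had a peak within 1 kb of the TSS under both treatments, as did 10.9% of protein-coding genes. Il12b and Il23a had such a peak under LPS and not under PBS, as did 13.2% of protein-coding genes. Il6 and Il12a had such a peak under PBS and not under LPS, as did 4.89% of protein-coding genes. For Il12a this holds for the outermost annotated start only. An LPS peak of 19 fragments lay 659 bp from another of its starts, so both treatments then had a peak within 1 kb. These calls rest on different numbers of fragments, given for each gene below, and the PBS peaks of Il6 and Il12a were the weakest.

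**Figure D4:**
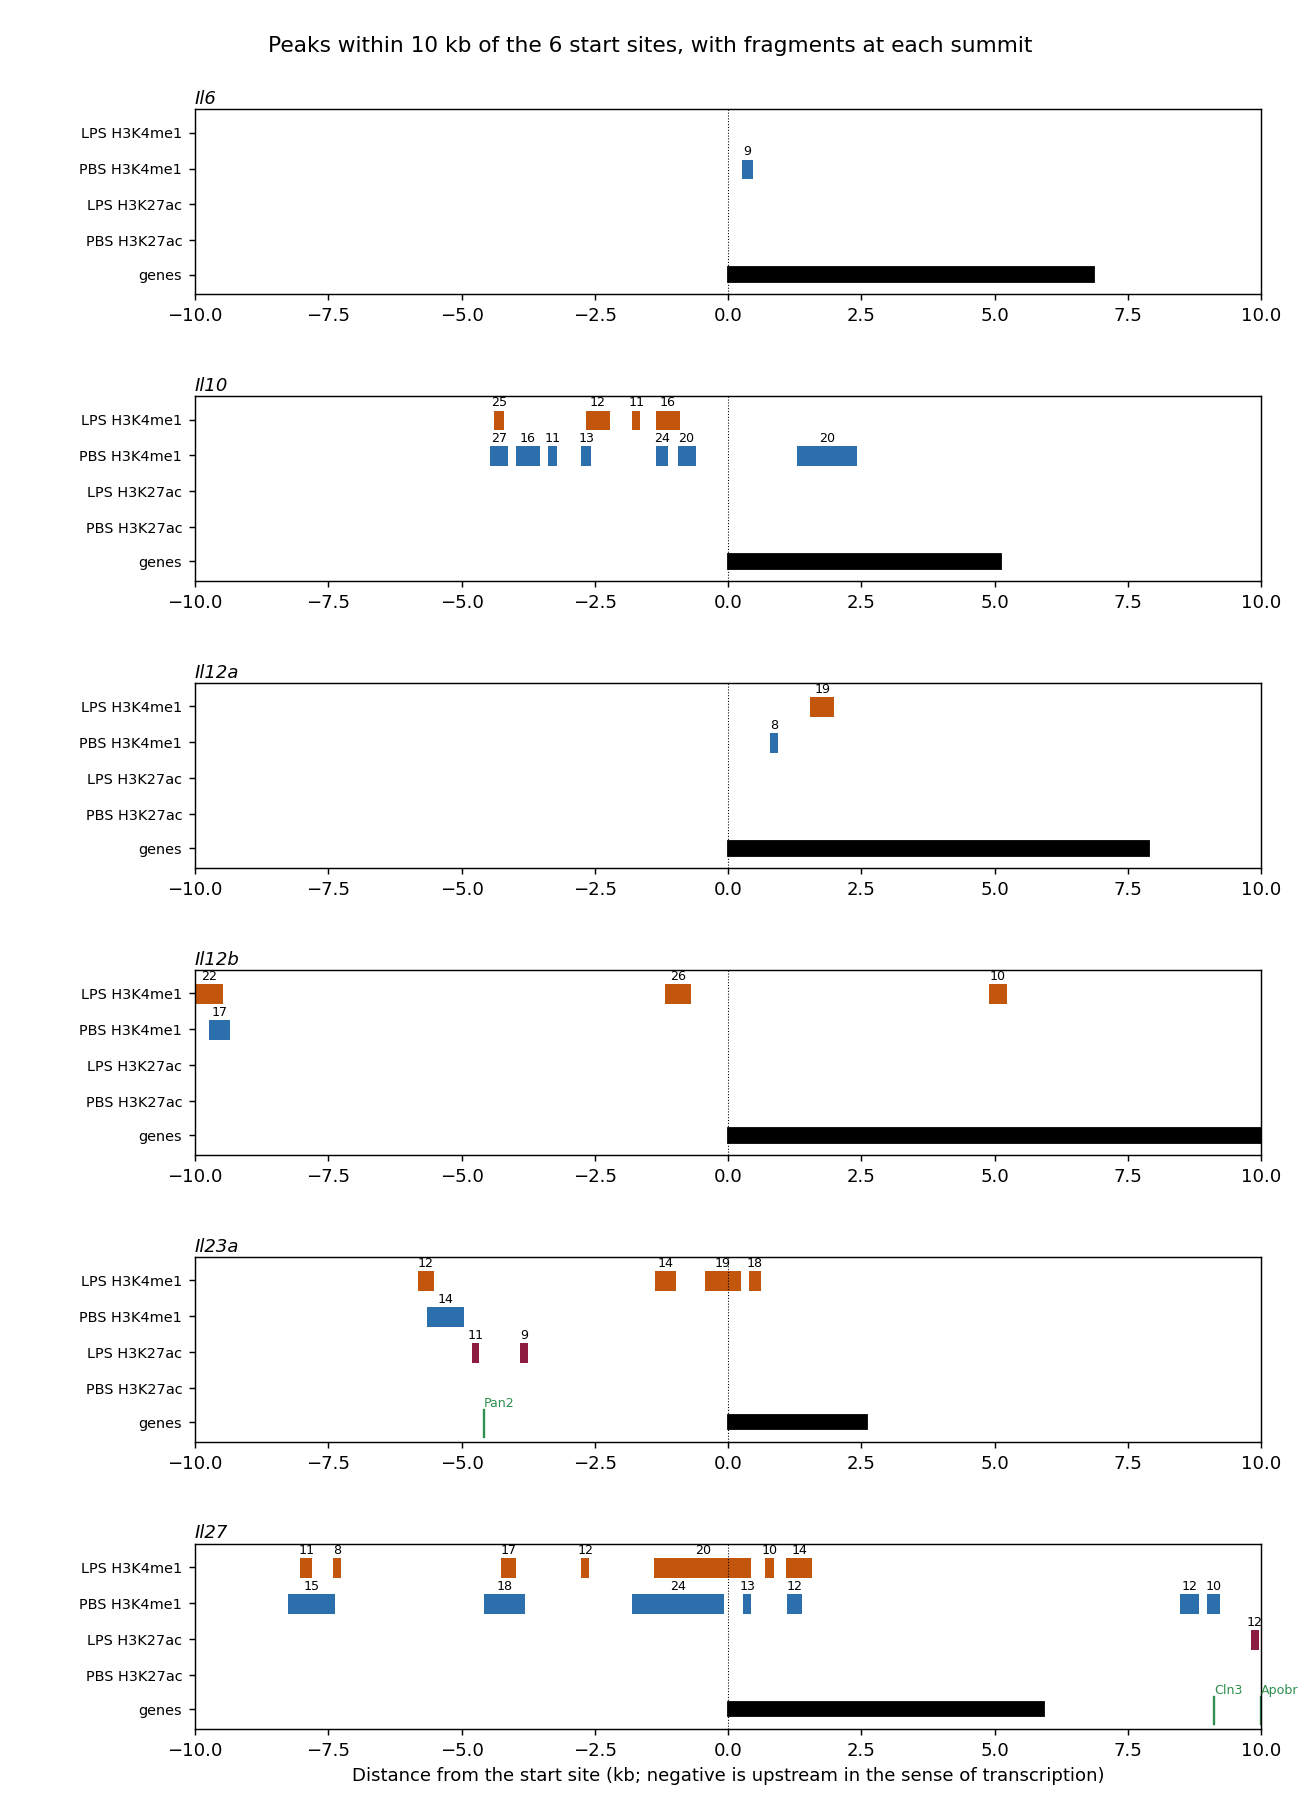
Peaks within 10 kb of each TSS (distance in kb on the horizontal axis, negative upstream) in the 4 lists, with the number of fragments at the summit above each box, the gene body in black and neighbouring TSSs in green. LPS peaks of 26 fragments at Il12b and of 19 and 18 at Il23a have no PBS peak beside them, and the PBS peak at Il6 has 9 fragments.

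Il6 (ENSMUSG00000025746.11, GRCm38 chr5:30013114-30019981, plus strand) had the emptiest window of the 6. Under LPS its nearest H3K4me1 peak lay 64764 bp from the TSS, with its summit at 64956 bp upstream and 21 fragments (95% interval 13 to 32.1). It lay in an exon of the noncoding gene Gm43386. The PBS list had a peak in the same place, with 25 fragments (16.2 to 36.9). A second LPS peak of 14 fragments lay beside it, without a PBS counterpart. The peak at the Il6 start was listed under PBS alone, at chr5:30013370-30013591. Its summit lay 333 bp into the gene, in coding sequence, and 9 fragments (4.12 to 17.1) supported it, 1 more than the fewest of the list. Its −log10 q was 2.78 and its fold enrichment 4.51, so 92.7% of the list ranked at or above it. With a −log10 q of at least 5, or a fold enrichment of at least 5, the nearest PBS peak was 22881 bp away. No H3K27ac peak was in the window, and the nearest LPS one lay 193643 bp upstream.

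The Il6 promoter and the PBS peak are printed to set motif matches beside the marked stretch. The promoter is the 250 bases before the RefSeq start (GRCm38.p6, chr5:30012864-30013113, plus strand). Capitals mark matches, on either strand, to a wide NF-kB motif (GGG and CC around any 5 letters) or to a strict form of it. In the strict form these letters are A, any letter and TTT. Capitals also mark matches to an AP-1 motif, TGANTCA. The PU.1 motif GAGGAAGT and a pattern taken for C/EBP, TTGCNNNAA, were searched as well. This last pattern has a wider gap than the C/EBP consensus, so C/EBP sites themselves were not searched, here or below.
Il6 promoter: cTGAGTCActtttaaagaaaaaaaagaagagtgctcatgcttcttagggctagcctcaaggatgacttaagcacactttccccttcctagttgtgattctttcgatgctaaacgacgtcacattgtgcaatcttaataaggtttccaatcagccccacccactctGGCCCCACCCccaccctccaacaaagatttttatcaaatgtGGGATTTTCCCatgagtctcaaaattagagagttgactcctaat
Il6 PBS H3K4me1 peak: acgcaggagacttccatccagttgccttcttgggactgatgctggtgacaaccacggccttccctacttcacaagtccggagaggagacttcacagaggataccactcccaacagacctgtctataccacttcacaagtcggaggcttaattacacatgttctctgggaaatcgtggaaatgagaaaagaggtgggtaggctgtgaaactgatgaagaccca
The strict NF-kB motif matched once, centred 40 bp upstream of the TSS, and was found in 117 (0.357%) of 32817 RefSeq promoters cut to the same 250 bases. The match overlapped another match to the wide motif, and a further such match was centred 81 bp upstream. The wide motif was found in 45.8% of the promoters and the AP-1 motif in 6.75%. None of the 5 motifs matched in the PBS peak. The promoter stretch itself was covered by no peak of any list.

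Il10 (ENSMUSG00000016529.5, chr1:131019845-131024974, plus strand) had its peaks on the downstream side. Under LPS 33 of 37 peak summits lay downstream of the TSS, and under PBS 38 of 44. Of these, 23 under LPS and 26 under PBS had their summits within the span of Mapkapk2, which encodes a kinase of the p38 pathway and starts 77981 bp downstream on the opposite strand. By nearest protein-coding start, 6 LPS and 11 PBS peaks were assigned to Il10 itself. The peaks with the highest −log10 q were among the distant ones. The highest under LPS was 2015 bp wide, with its summit 90842 bp downstream and 27 fragments (17.8 to 39.3), and the highest under PBS had its summit 55632 bp downstream and 30 fragments (20.2 to 42.8). Both had a counterpart under the other treatment. Il10 was the member with the largest covered length, at 17235 bp (8.4% of its window) under LPS and 20014 bp (9.76%) under PBS.

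Close to Il10 the lists held 4 LPS and 7 PBS peaks within 10 kb of the TSS. The LPS summits lay 4308, 2616, 1728 and 1142 bp upstream, with 25, 12, 11 and 16 fragments. The PBS summits lay 4300, 3907, 3258, 2676, 1217 and 740 bp upstream and 1300 bp downstream, with 27, 16, 11, 13, 24, 20 and 20 fragments. Both lists thus marked the 5 kb upstream of the start, and the PBS list alone had a peak in the Il10 gene body, 1125 bp wide over an intron. The peak about 4.3 kb upstream held the most fragments of these in each list, and the intervals of its fragments overlapped, at 16.2 to 36.9 under LPS and 17.8 to 39.3 under PBS. Its enrichment was 11-fold under LPS and 5.13-fold under PBS, and its −log10 q 15.1 and 5.76. These values are set against a local background of 0.28 under LPS and 2 under PBS, while the fragments were 25 and 27. They do not show a stronger mark under LPS. This peak is printed because it had the highest −log10 q of the LPS peaks within 10 kb of the TSS. The sequence is from the genome on the plus strand at the limits of the LPS peak, chr1:131015448-131015647, with capitals as above.
Il10 upstream peak: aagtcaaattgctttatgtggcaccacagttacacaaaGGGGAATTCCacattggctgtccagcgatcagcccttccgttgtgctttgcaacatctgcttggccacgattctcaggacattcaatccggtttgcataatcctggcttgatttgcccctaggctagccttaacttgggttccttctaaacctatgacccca
Its match to the wide NF-kB motif lay 4355 bp upstream of the TSS. The same motif was found in 26.5% of stretches of 200 bp centred on the LPS H3K4me1 summits. No H3K27ac peak was in the Il10 window, and the nearest LPS one lay 257410 bp downstream.

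Il12a (ENSMUSG00000027776.12, chr3:68690644-68698547, plus strand), which pairs with Il12b in interleukin-12, had few and scattered peaks. Within 10 kb of the TSS each list had 1 peak, and the peaks did not overlap. The LPS peak lay over an intron with its summit 1864 bp downstream, 19 fragments (11.4 to 29.7) and a −log10 q of 7.41. The PBS peak, chr3:68691427-68691590, had its summit 883 bp downstream in coding sequence, with 8 fragments (3.45 to 15.8) and a −log10 q of 2.06. No PBS peak of the series had fewer fragments, and it was lost with a −log10 q or a fold enrichment of at least 5. The gene has 5 annotated starts, up to 3377 bp downstream of its outermost one, and the PBS peak covered one of them. The LPS peak lay 659 bp from the nearest. A peak with its summit 18716 bp downstream under LPS and 18752 bp under PBS had 17 fragments under LPS and 20 under PBS, and another with its summits 104137 and 103908 bp downstream had 15 and 18. The remaining 3 LPS peaks lay 52398 to 57949 bp upstream, and of the remaining PBS peaks 1 lay 13441 bp upstream and 1 lay 88143 bp downstream. No H3K27ac peak was in the window.

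The stretch before the downstream RefSeq start of Il12a is shown because the PBS peak began just after it. The 250 bases are at GRCm38.p6 chr3:68691174-68691423, plus strand.
Il12a downstream promoter: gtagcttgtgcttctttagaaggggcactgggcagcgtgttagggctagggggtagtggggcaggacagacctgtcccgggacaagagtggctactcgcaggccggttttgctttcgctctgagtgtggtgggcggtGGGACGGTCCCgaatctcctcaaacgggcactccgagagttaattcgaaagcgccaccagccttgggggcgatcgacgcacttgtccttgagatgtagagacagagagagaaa
The capitals are a pair of overlapping matches to the wide NF-kB motif, about 671 bp downstream of the outermost start. In the 250 bases before the outermost RefSeq start none of the 5 motifs matched. The PBS peak itself, not printed, held 1 match to the wide NF-kB motif, which was found in 21.4% of stretches of 164 bp centred on PBS H3K4me1 summits.

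Il12b (ENSMUSG00000004296.14, chr11:44400063-44414033, plus strand) encodes the subunit shared by interleukin-12 and interleukin-23, and had the strongest start-site peak seen under LPS alone. This peak, chr11:44398889-44399361, had its summit 933 bp upstream with 26 fragments (17 to 38.1), a −log10 q of 8.46 and 7.3-fold enrichment. The nearest PBS peak lay 9352 bp from the TSS. These distances were the same with a −log10 q of at least 5, a fold enrichment of at least 5 and H3K4me1 lists of equal size. Further LPS peaks in introns, 4983 bp downstream with 10 fragments and 10728 bp downstream with 19 and a −log10 q of 9.12, also had no PBS counterpart. About 9.5 kb upstream both lists had a peak, with 22 fragments (13.8 to 33.3) under LPS and 17 (9.9 to 27.2) under PBS.

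Farther out, Il12b was flanked by marked stretches that both libraries shared. Of 22 LPS and 17 PBS peaks, 12 in each list had a counterpart. The strongest LPS peak of all 6 windows lay 96322 bp downstream, with 42 fragments (30.3 to 56.8) and rank 198 of 73049, and its PBS counterpart had 19 fragments. Its nearest protein-coding start was that of Rnf145, not Il12b. The strongest PBS peak lay 37943 bp downstream with 33 fragments (22.7 to 46.3), and its LPS counterpart had 30. Among LPS peaks without a counterpart, that with the highest −log10 q, 10.5, lay 17860 bp upstream with 21 fragments.

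The 300 bases centred on the summit of the LPS start-site peak are printed because this was the peak nearest to the Il12b start and had no PBS counterpart. They lie at chr11:44398980-44399279 on the plus strand.
Il12b LPS H3K4me1 peak: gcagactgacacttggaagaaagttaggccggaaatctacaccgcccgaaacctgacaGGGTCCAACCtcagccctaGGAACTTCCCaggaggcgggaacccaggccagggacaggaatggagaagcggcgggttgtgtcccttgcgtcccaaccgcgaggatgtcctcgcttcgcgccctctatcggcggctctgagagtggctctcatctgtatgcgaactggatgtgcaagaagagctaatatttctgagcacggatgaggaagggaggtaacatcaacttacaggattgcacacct
The capitals are 2 matches to the wide NF-kB motif, 1021 and 1002 bp upstream of the TSS. The motif was found in 34.5% of stretches of 300 bp centred on LPS H3K4me1 summits. In the 250 bases before the RefSeq start of Il12b, which no peak covered, none of the 5 motifs matched.

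Il23a (ENSMUSG00000025383.2, chr10:128296139-128298752, minus strand), the subunit particular to interleukin-23, had LPS H3K4me1 peaks across its start and no PBS peak there. The LPS peak at chr10:128298507-128299189 covered the TSS and had 19 fragments (11.4 to 29.7). Another in the gene had its summit 480 bp downstream with 18 fragments (10.7 to 28.4), and another lay 1312 bp upstream with 14 (7.65 to 23.5). The nearest PBS peak lay 4962 bp away, over the neighbouring gene Pan2, with 14 fragments (7.65 to 23.5), and it overlapped an LPS peak of 12 (6.2 to 21). The LPS start-site peaks ranked low in the list, with −log10 q values of 4.62, 4.62 and 2.91, which put them within the top 63%, 63% and 89% of it. When only peaks with a −log10 q of 5 or more were kept, the nearest LPS peak was 34782 bp away and the nearest PBS peak 39213 bp away, so that neither list marked the start. With a fold enrichment of at least 5 the LPS peak at the start remained. The window is dense in genes, with 13 other protein-coding genes. The peak with the highest −log10 q of the window lay 39736 bp downstream under LPS, with 25 fragments (16.2 to 36.9), and 72032 bp upstream under PBS, with 19 (11.4 to 29.7), and each had a counterpart in the other list, of 17 and 26 fragments. By nearest protein-coding start, 3 of the 19 LPS peaks and 0 of the 12 PBS peaks were assigned to Il23a itself.

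Il27 (ENSMUSG00000044701.5, chr7:126589010-126594941, minus strand) was marked at its start under both treatments. The LPS peak at chr7:126594507-126596321 was 1815 bp wide, covered the TSS and had 20 fragments (12.2 to 30.9) at a summit 1306 bp upstream. The PBS peak at chr7:126595024-126596741 was 1718 bp wide, ended 83 bp short of the TSS and had 24 fragments (15.4 to 35.7) at a summit 1674 bp upstream. Each list had 7 peaks within 10 kb. Within the gene the LPS list had summits 705 and 1402 bp downstream, with 10 and 14 fragments, and the PBS list 330 and 1387 bp downstream, with 13 and 12. Farther upstream, the LPS list had summits 2648, 4099, 7253 and 7956 bp away, with 12, 17, 8 and 11 fragments, and the PBS list 4205 and 7986 bp away, with 18 and 15. The PBS list alone had peaks 8720 and 9013 bp downstream, with 12 and 10 fragments, at the start of Cln3. With a −log10 q of at least 5 the nearest PBS peak was 3808 bp away, while the LPS peak over the TSS stayed in the list. The wide PBS peak had a −log10 q of 4.27 over a local background of 2, and the wide LPS peak 5.51 over 1. By fragments, 24 against 20, the LPS peak was not the stronger one. The strongest PBS peak of the window lay 11977 bp upstream with 26 fragments (17 to 38.1), and its LPS counterpart had 20. The highest −log10 q under LPS, 10.5, was that of a peak 59965 bp upstream in an intron of Sgf29, with 21 fragments (13 to 32.1), and its PBS counterpart had 20.

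H3K27ac peaks were found in the windows of 3 of the 6 genes under LPS, those of Il12b, Il23a and Il27, against 39.6% of all protein-coding genes. Within 10 kb of the TSS they were found for 2 of 6, Il23a and Il27, against 8.92%. Under PBS they were found for 0 of 6, against 0.998%. The 5 LPS peaks had 6 to 12 recovered fragments at their summits, numbers that may be too low. No treatment could be compared at these sites beyond presence in a list. The LPS list reached down to a −log10 p of 5.23 and the PBS list to 6.91. When both were held to 6.91, a setting chosen after the data were seen, 4 of the 5 peaks remained, at the same 3 genes. With a −log10 q of at least 5, 1 peak remained, at Il27.

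Of the 5 H3K27ac peaks, 3 lay at the starts of neighbouring genes. The windows of Il23a and Il27, which held these 3, had 13 and 9 other protein-coding genes. The share of the whole LPS H3K27ac list at gene starts is not given here. In the Il23a window they lay on either side of the start of Pan2, a subunit of an mRNA deadenylase, which begins 4583 bp upstream of Il23a on the other strand. Their summits were 3892 and 4693 bp upstream of Il23a, with 9 (4.12 to 17.1) and 11 (5.49 to 19.7) fragments, and 691 bp before and 110 bp after the Pan2 start. In the Il27 window the stronger peak, chr7:126584981-126585133, lay 9875 bp downstream with 12 fragments (6.2 to 21) and a −log10 q of 5.46. It was 124 bp inside Apobr, a lipoprotein receptor gene of macrophages. None of these 3 was overlapped by an H3K4me1 peak.

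The other H3K27ac peaks lay between genes. That of Il12b, chr11:44369084-44369297, lay 30773 bp upstream with 7 fragments (2.81 to 14.4) and was overlapped by no H3K4me1 peak. That of Il27, chr7:126607203-126607488, lay 12444 bp upstream with 6 fragments (2.2 to 13.1) and a −log10 q of 2.41. It was the weakest of the 5, and the only one overlapped by H3K4me1, under LPS with 20 fragments and under PBS with 26. The share overlapped by H3K4me1 was therefore 1 of 5 (20%, Wilson interval 3.62 to 62.4%). It was 0 under either stricter limit and at the common −log10 p, 50% (15 to 85%) after merging peaks within 1000 bp and 60% (23.1 to 88.2%) when the H3K27ac peaks were extended by 500 bp. The share over the whole LPS H3K27ac list is not given here, so these shares are not read as a trait of the interleukin genes.

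The sequences of the H3K27ac peaks that lay outside untranslated exons are printed as the candidate stretches for acetylation near Il12b, Il23a and Il27, 5′ to 3′ on the strand of the interleukin gene. The Il12b peak is on the plus strand, and the Il23a peak, chr10:128302504-128302651, and the Il27 peak are on the minus strand.
Il12b H3K27ac peak: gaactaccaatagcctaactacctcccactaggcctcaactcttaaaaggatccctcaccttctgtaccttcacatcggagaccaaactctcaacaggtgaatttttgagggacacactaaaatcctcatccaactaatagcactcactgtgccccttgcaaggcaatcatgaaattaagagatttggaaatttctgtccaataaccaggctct
Il23a H3K27ac peak: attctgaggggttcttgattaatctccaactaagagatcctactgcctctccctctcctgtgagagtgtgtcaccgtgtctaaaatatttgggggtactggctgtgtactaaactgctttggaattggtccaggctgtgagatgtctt
Il27 H3K27ac peak: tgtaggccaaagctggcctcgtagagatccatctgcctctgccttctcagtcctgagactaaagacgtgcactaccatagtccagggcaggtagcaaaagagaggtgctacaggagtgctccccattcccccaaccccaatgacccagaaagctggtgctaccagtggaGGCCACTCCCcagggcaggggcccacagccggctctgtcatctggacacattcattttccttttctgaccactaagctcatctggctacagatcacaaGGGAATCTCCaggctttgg
The Il27 sequence held 2 matches to the wide NF-kB motif, 12275 and 12373 bp upstream of the TSS. At least 1 match was found in 37.9% of stretches of 286 bp centred on LPS H3K27ac summits. None of the 5 motifs matched in the printed Il12b and Il23a sequences. The other Il23a peak, not printed, held 1 match to the pattern TTGCNNNAA, which was found in 4.17% of stretches of 131 bp centred on LPS H3K27ac summits. As this pattern has a wider gap than the C/EBP consensus, the match is not a C/EBP site.

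Genes of the same pathways were counted in the same way. Of 13 other ligands and subunits of these cytokine families, the LPS H3K4me1 list had more peaks than the PBS list at 9 and fewer at 2. Ebi3, the partner of Il27, had 19 peaks under LPS and 10 under PBS with 2 LPS H3K27ac peaks, 1 of them within 10 kb of its TSS. It was with Zc3h12a the gene whose 4 counts were nearest to those of Il23a, at a summed difference of 2 peaks over the 4 lists. Of 8 receptor genes, 4 had more and 4 fewer LPS peaks. Il10ra had 33 and 41, in the same order as Il10, and Il6ra had 33 and 30. Of 6 signalling genes, 5 had more LPS peaks and 1 fewer, and of 12 regulators 9 had more and 1 fewer. These counts stand beside 54.6% of all protein-coding genes with more LPS peaks. With lists of equal size the LPS list had more peaks at 7 of 13 ligands, 2 of 8 receptors, 3 of 6 signalling genes and 5 of 12 regulators, beside 40.2% of all protein-coding genes. Arid5a, which stabilises Il6 mRNA, had 23 and 10. Zc3h12a, which degrades it, had 19 and 13. Cebpb, a C/EBP factor, had 36 and 34, with 6 LPS H3K27ac peaks in its window.

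A further list of 8 early LPS response genes was set beside the interleukin genes. Of these, 7 had an LPS H3K27ac peak in the window and 6 had 1 within 10 kb of the TSS, against 3 and 2 of the 6 interleukin genes and 39.6% and 8.92% of all protein-coding genes. Ccl3 and Ccl4 are neighbours whose windows overlap, so they share peaks. The LPS list had more H3K4me1 peaks than the PBS list at 3 of the 8 and fewer at 4. With lists of equal size it had more at 0 of the 8 and fewer at 7. At equal size it had more at 8824 (40.2%) and fewer at 6684 of all 21938 protein-coding genes. Tnf had 20 and 19 H3K4me1 peaks, with 3 LPS H3K27ac peaks, and Tnfaip3, an inhibitor of NF-kB signalling, had 23 and 25 with 7. The median H3K4me1 counts of these early genes were 21.5 under LPS and 22.5 under PBS, against 20.5 and 14.5 for the interleukin genes. No PBS H3K27ac peak was in the window of any gene of these lists. By the same measure of likeness, Il6 was nearest to Nfil3 with a summed difference of 1 and Il12a to Il22 with 2. Lif and Osm were among the genes nearest to Il12b with 6, and Tyk2 among those nearest to Il27 with 4. Il10 was nearest to Ccl4, Il10ra and Irf8 with 10.

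**Figure D5:**
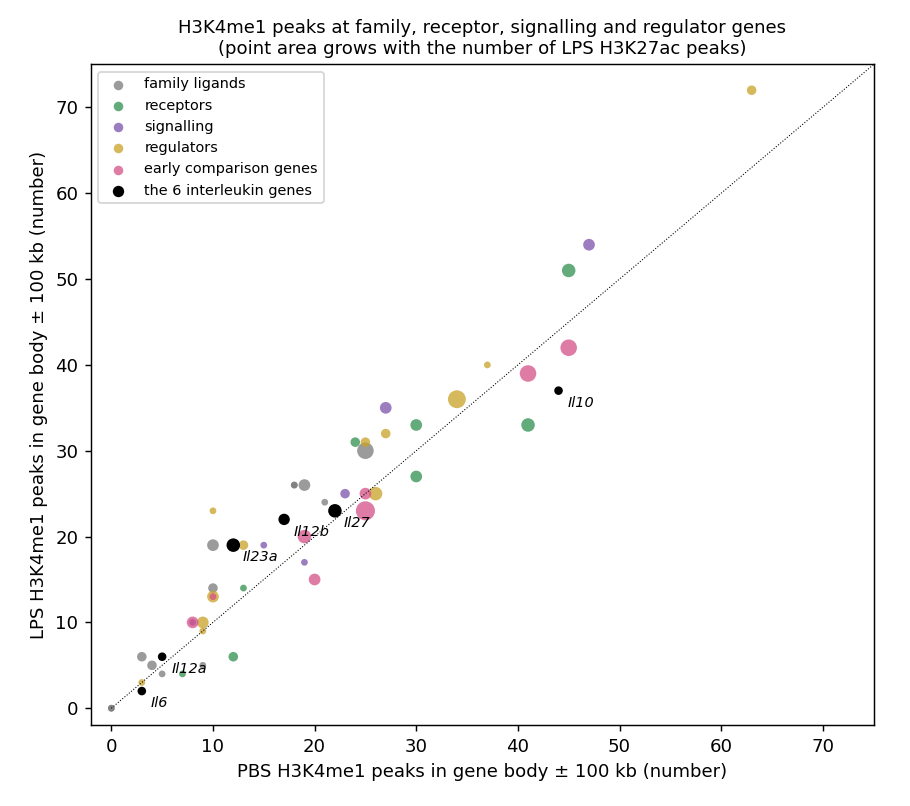
H3K4me1 peaks in each gene body extended by 100 kb under PBS (horizontal axis, number) and LPS (vertical axis, number) for the 6 interleukin genes (black) and 5 lists of pathway genes, with larger points for more LPS H3K27ac peaks and a dotted line of equal counts. Il10 lies below the line at 44 and 37, and Il23a above it at 12 and 19.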

How the data were processed

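The authors aligned paired-end CUT&RUN reads to GRCm38 with Bowtie2 2.4.4, left out blacklisted regions and called peaks with MACS2 2.2.7.1. There is 1 deposited list per library, and the control used is not given in the sources used here. Each deposited list gives, per peak, a fold enrichment (a ratio of coverage to local background), −log10 values of the p-value and of the q-value, a summit position and a score, which was not used. The 2 IgG libraries were not analysed on their own.

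Groups came from the sample labels. Genes and TSSs were those of GENCODE M21 on the same build as the deposited lists (the study used VM23), promoters those of RefSeq (GRCm38.p6), which matched 3 of the 6 symbols (Il6, Il12a and Il12b). Fragments at a summit were recovered from the deposited fold enrichment and p-value with 1 scaling factor per library, which returned the p-value within 0.002 for every peak. For H3K27ac smaller factors would do as well and would give more fragments and a greater depth, and the largest was used. Total depth also took the smallest peak width as fragment length. The recovery and the counting were checked on simulated data or by direct enumeration. Overlap was at least 1 bp. Intervals were Wilson intervals for shares and exact Poisson intervals for fragments (Python 3.11.15, scipy 1.17.1, statsmodels 0.14.6).

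The peaks named were each H3K27ac peak in a window, each H3K4me1 peak within 10 kb of a TSS, and the nearest and highest-ranking of each list. Other peaks named, and the neighbouring genes, were chosen after their values were seen. The genes, lists and rules were chosen with earlier results of these data known. Alternatives were stricter limits, other windows, merging, summit position, equal list sizes and other definitions of overlap. Some list genes are not reported here by name.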

Additional observations from a re-analysis of the deposited data

How the results depend on the processing

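No paired analysis was possible because each treatment and antibody had 1 library only. A −log10 q of at least 5 left 59 LPS and 56 PBS H3K4me1 peaks and 1 LPS H3K27ac peak at 1 gene, with 0% overlapped by H3K4me1. With enrichment of at least 5-fold, 3 LPS H3K27ac peaks were left, also with 0% overlapped, and the common −log10 p gave 0% as well. Windows of 50 kb held 58 LPS and 59 PBS H3K4me1 peaks, windows of 200 kb 181 and 171, with 8 LPS H3K27ac peaks. After merging across gaps of up to 1000 bp there were 65 and 57 H3K4me1 peaks. An overlap of 50% of both peaks gave 26.6% of LPS and 28.2% of PBS H3K4me1 peaks shared, and extension by 500 bp gave 78.6% for PBS. In the remaining 45 combinations of these results and settings, counts stayed within 1.5 times and shares within their interval. Equal list sizes turned the order of the H3K4me1 counts, to 93 under LPS and 103 under PBS, as did the windows of 50 kb. Among values of single genes, 21 of 72 moved by more than 1.5 times, among them the start-site distances of Il6, Il12a and Il23a given above. The cause was not tested. Summits of 6 to 12 fragments limit what the lists can show at the H3K27ac sites and at the Il6 and Il12a starts.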

Other observations

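The Il10 gene lies beside other members of its family on chromosome 1, and these differed from it in H3K4me1. The Il19 window, which overlaps that of Il10, held 5 LPS and 9 PBS peaks, and the nearest lay 75333 and 75271 bp from its TSS. All of them were peaks of the Il10 window already counted above. The nearest was the peak about 4.3 kb upstream of Il10. The windows of Il20 and Il24 held 0 peaks in all 4 lists. Lif and Osm, neighbouring members of the interleukin-6 family on chromosome 11, had identical counts, 26 under LPS and 18 under PBS, in windows that overlap. Within 10 kb of the TSS the counts were 4 and 3 at Osm and 2 and 0 at Lif.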
